A study of Saccharomyces cerevisiae with 36 samples.

Results

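The genes described here are 48 genes for assembly factors of the 60S ribosomal subunit in *Saccharomyces cerevisiae*. They were taken by systematic name from a list written around *ERB1*, *NOP7*, *YTM1*, *RPF2*, *NOG1*, *NOG2*, *TIF6*, *MAK16*, *NOC2*, *NOP2*, *DBP10* and *SDA1*, and the rule itself used no measured value. All 48 were among the 6403 genes of the deposited count table. They also passed the filter on low counts that left 6038 genes for testing, with no count under 143 in any sample.

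Poly(A) RNA was sequenced from 36 samples, in 12 groups with 3 replicates each. The strains were *mip6Δ*, a single BY4741 deletion strain in which *MIP6* was replaced by KANMX4, and its parent BY4741 (WT), and both were in exponential growth in YPD at 30 °C. Memory cultures received a heat shock of 20 min at 39 °C, recovered for 60 min at 30 °C and then met the final heat shock at 39 °C. In contrast, no-memory cultures were given fresh medium at 30 °C and stayed at 30 °C for 80 min before a single heat shock. Samples were taken at 0, 15 and 20 min of the final heat shock, so that 0 min means recovered cells in the memory condition and cells without a heat shock in the no-memory condition. A culture had been split between the memory and the no-memory flask. The heat shock was started by adding medium at 51 °C to cultures of both conditions.

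The 60S subunit starts in the nucleolus as a stretch of the RNA polymerase I transcript bound by early factors, and it is folded, cleaved, stripped of its factors and exported through a succession of pre-60S particles. RNA helicases remodel the pre-rRNA, GTPases and AAA ATPases drive irreversible steps, and placeholder proteins hold sites that ribosomal proteins or translation factors take later. In yeast these genes belong to the ribosome biogenesis regulon, known for its coordinated repression under stress and for 2 promoter elements, PAC and RRPE.

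Total counts were between 28270651 and 42233578 per sample. *MIP6* had a count of 0 in all 18 *mip6Δ* samples and of 134 to 626 in the 18 WT samples. *HSP104*, the gene for the Hsp104 disaggregase, had 2203 to 21744 CPM (reads of the gene per 1000000 reads) at 15 and 20 min, against 173 to 5140 CPM at 0 min. *HSP26*, which codes for a small heat shock protein, had 3768 to 16285 CPM at 15 and 20 min, against 9.70 to 49.1 CPM at 0 min. For replicate 2 of *mip6Δ* memory at 0 min, the title gave 0 min and another label 20 min. Its log profile correlated at 0.953 to 0.978 with the other 0 min samples of its condition in deviations from the overall mean, and at -0.303 to -0.0226 with the 20 min samples, and it was kept at 0 min. CPM are scaled here by TMM factors, so each value is relative to the rest of the same RNA pool, and less RNA of all kinds per cell cannot be told apart from no change. The study describes the replicates as biological, and the labels do not say which samples came from the same starting culture.

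Short stretches upstream of 6 of the genes are printed because nearly all of the 48 genes moved together, and because they hold the 2 elements that the regulon is known for. The elements were searched as exact letters on both strands in the 300 bases before the start codon: PAC as GCGATGAG, its core as GATGAG and RRPE as AAAAATTT (RefSeq, build R64, the assembly of sacCer3). In each 30-base stretch, written 5′ to 3′ along the coding strand, capitals mark the match. A match on the other strand reads CTCATCGC for PAC or AAATTTTT for RRPE, and further copies that fall in a stretch are in lower case.
*NOP7* PAC: gaaaattttttGCGATGAGatgagatgaga
*ERB1* PAC: tttttggttttGCGATGAGcttataattta
*YTM1* PAC: gaagtgctcatCTCATCGCaaaccgtagga
*NOG2* PAC: tttgcccgatgCTCATCGCaaaaatttttc
*MDN1* PAC: attttaaagaaGCGATGAGctaaggtctat
*TIF6* RRPE: aaattttcggaAAATTTTTattaattaaag

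The stretch of *NOP7* is chrVII:695275-695304 on the plus strand, with 123 bases between the match and the start codon. The stretches of *ERB1* (chrXIII:370594-370623, minus strand) and *YTM1* (chrXV:832665-832694, plus strand) held their matches 87 and 129 bases before the start codon. *NOG2* (chrXIV:723275-723304, minus strand) had PAC 173 bases before its start codon with an RRPE next to it, and *MDN1* (chrXII:363927-363956, minus strand) had PAC 199 bases before it. *TIF6* (chrXVI:593247-593276, minus strand) had the PAC core but no full PAC, and its RRPE lay 188 bases before the start codon. All 6 stretches lie upstream of coding exons.

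The PAC core was present upstream of 46 of the 48 genes (95.8%), against 19.1% of the 6001 protein-coding genes of the annotation. The full PAC was present in 32 of the 48 (66.7%), against 4.05% of all genes, and RRPE in 39 of the 48 (81.2%), against 15.1%. PAC core and RRPE stood together in 38 members (79.2%), against 5.6% of all genes. *MAK11* had neither, and *NSA1* had RRPE alone. In the 53 genes of the small-subunit processome and 40S assembly, the PAC core was present in 90.6% and RRPE in 84.9%. These are descriptions of letters and not of bound sites.

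**Figure D1:**
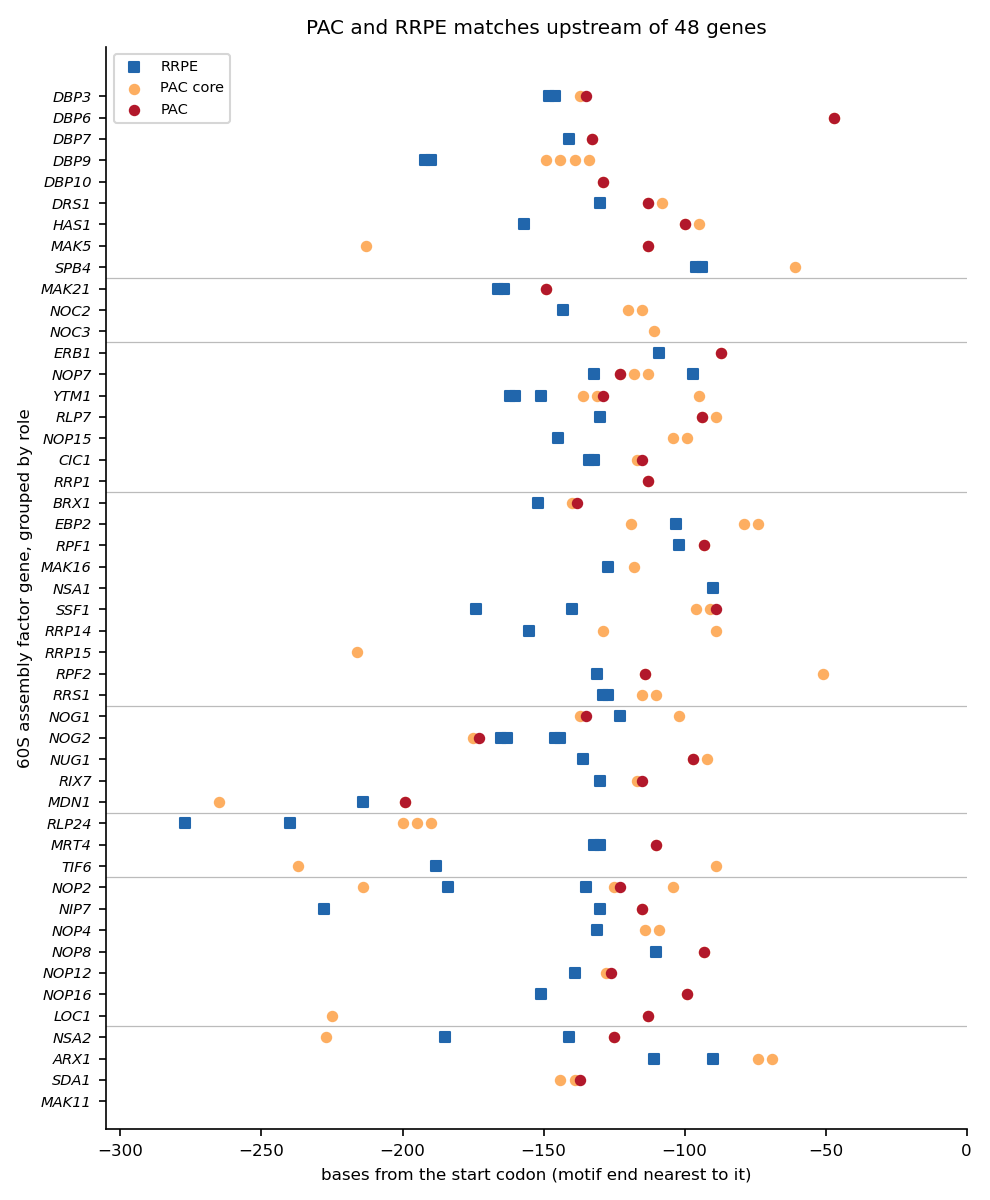
Positions of PAC (red), its core (orange, under the red mark where a full PAC has the same position) and RRPE (blue squares) upstream of the 48 genes, in bases from the start codon. For a full PAC on the other strand, the orange mark of its own core is plotted slightly apart from the red one. The 32 full PAC matches lay 47 to 199 bases before the start codon, and the row of *MAK11* is empty.

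Before the final heat shock in WT no-memory cells, levels per kilobase of coding length ran from 436 CPM per kb for *TIF6* to 16.6 CPM per kb for *MDN1*, with a median of 73.2 CPM per kb over the 48 genes. In the order of these levels, the ranges of mean ± 1 SD of the replicates did not overlap in 3 of 47 neighbouring pairs. These were *TIF6* over *MRT4*, *RIX7* over *DBP7* and *NOP8* over *MDN1*, and the ranges of the other neighbours overlapped.

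The first comparison asks how the heat shock itself changed the 48 genes in each strain and condition. In no-memory cells each of them fell by 15 min. At 15 min against 0 min, 48 of 48 were lower in *mip6Δ*, where 37.5% of all genes tested were called lower, and 48 of 48 were lower in WT, where 36% of all genes were. A gene was called when its adjusted p was under 0.05 in edgeR's quasi-likelihood test, with Benjamini-Hochberg adjustment over all 6038 genes. The median log2 change of the 48 genes was -1.77 in *mip6Δ* no-memory cells, against 0.01 for all genes, and -1.65 in WT no-memory cells, against 0.01. The largest falls in WT no-memory cells were those of *NOP7* (-2.91), *ERB1* (-2.55), *HAS1*, *DBP3* (-2.53 each on the log2 scale) and *MDN1* (-2.52), and the smallest were those of *NOP8*, *DBP6* (-0.92 each) and *RRP15* (-0.94).

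The second heat shock, met by memory cells, also lowered most of the genes. At 15 min against 0 min, 47 of 48 were lower in *mip6Δ* memory cells (35% of all genes) with a median log2 change of -1.05, and 38 of 48 in WT memory cells (32.6% of all genes) with a median of -0.85. *NOG2* was the gene that missed the threshold in *mip6Δ*. *DBP6*, *DBP7*, *MAK5*, *NOP15*, *SSF1*, *NOG1*, *NOG2*, *NOP8*, *NOP12* and *NSA2* missed it in WT, with log2 values between -0.57 for *MAK5* and 0.06 for *NOG2*. The WT count depended on single sets of replicates: 47 of 48 were called without replicate 1 of every group, 16 without replicate 2 and 25 without replicate 3. How many of all genes were called without these replicates is not given here.

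At 20 min against 0 min, 36 of 48 genes were lower in *mip6Δ* memory cells (32.5% of all genes), 48 in *mip6Δ* no-memory cells (36.2%), 21 in WT memory cells (29.8%) and 45 in WT no-memory cells (34%). The medians were -0.79 and -1.52 in *mip6Δ* memory and no-memory cells, and -0.51 and -1.07 in WT memory and no-memory cells. Each median was closer to 0 at 20 min than at 15 min, which for *mip6Δ* no-memory cells rested on 1 sample: the members' median between 20 and 15 min there turned to -0.071 without replicate 1 at 15 min. *DBP7*, *NOG2* and *NOP8* were the genes not called in WT no-memory cells at this time. Without replicate 2 of every group, the count was 19 in *mip6Δ* memory, 5 in WT memory and 27 in WT no-memory cells, and without replicate 1 it was 37 in WT memory cells. For these fits with fewer samples, the share of all genes called is not given here.

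The step between 15 and 20 min was tested on its own. No member passed the threshold in edgeR in any of the 4 cultures, where 0.0994% (*mip6Δ* memory), 0.132% (*mip6Δ* no-memory), 0.0994% (WT memory) and 1.13% (WT no-memory) of all genes were called higher. At an unadjusted p under 0.05, 1 member was higher in each of *mip6Δ* memory, *mip6Δ* no-memory and WT memory cells, and 40 of 48 in WT no-memory cells. In WT no-memory cells, the 3 samples at 20 min lay above the 3 samples at 15 min for 44 of 48 genes, against 15.1% of all genes, and the median log2 difference was 0.58. Other tools called 2 members (DESeq2) and 11 members (limma with a pseudocount of 1) in this comparison, and 0 in the other cultures. No share of all genes called under the same setting stands beside these counts or those that follow. For WT no-memory cells edgeR called 6 with the replicate number as a block. It called 12 without replicate 1 of *mip6Δ* no-memory at 15 min, whose summed share of counts for the members was the lowest of all 36 samples. That sample is not part of the WT comparison and reaches it only through the fit shared by all groups.

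**Figure D2:**
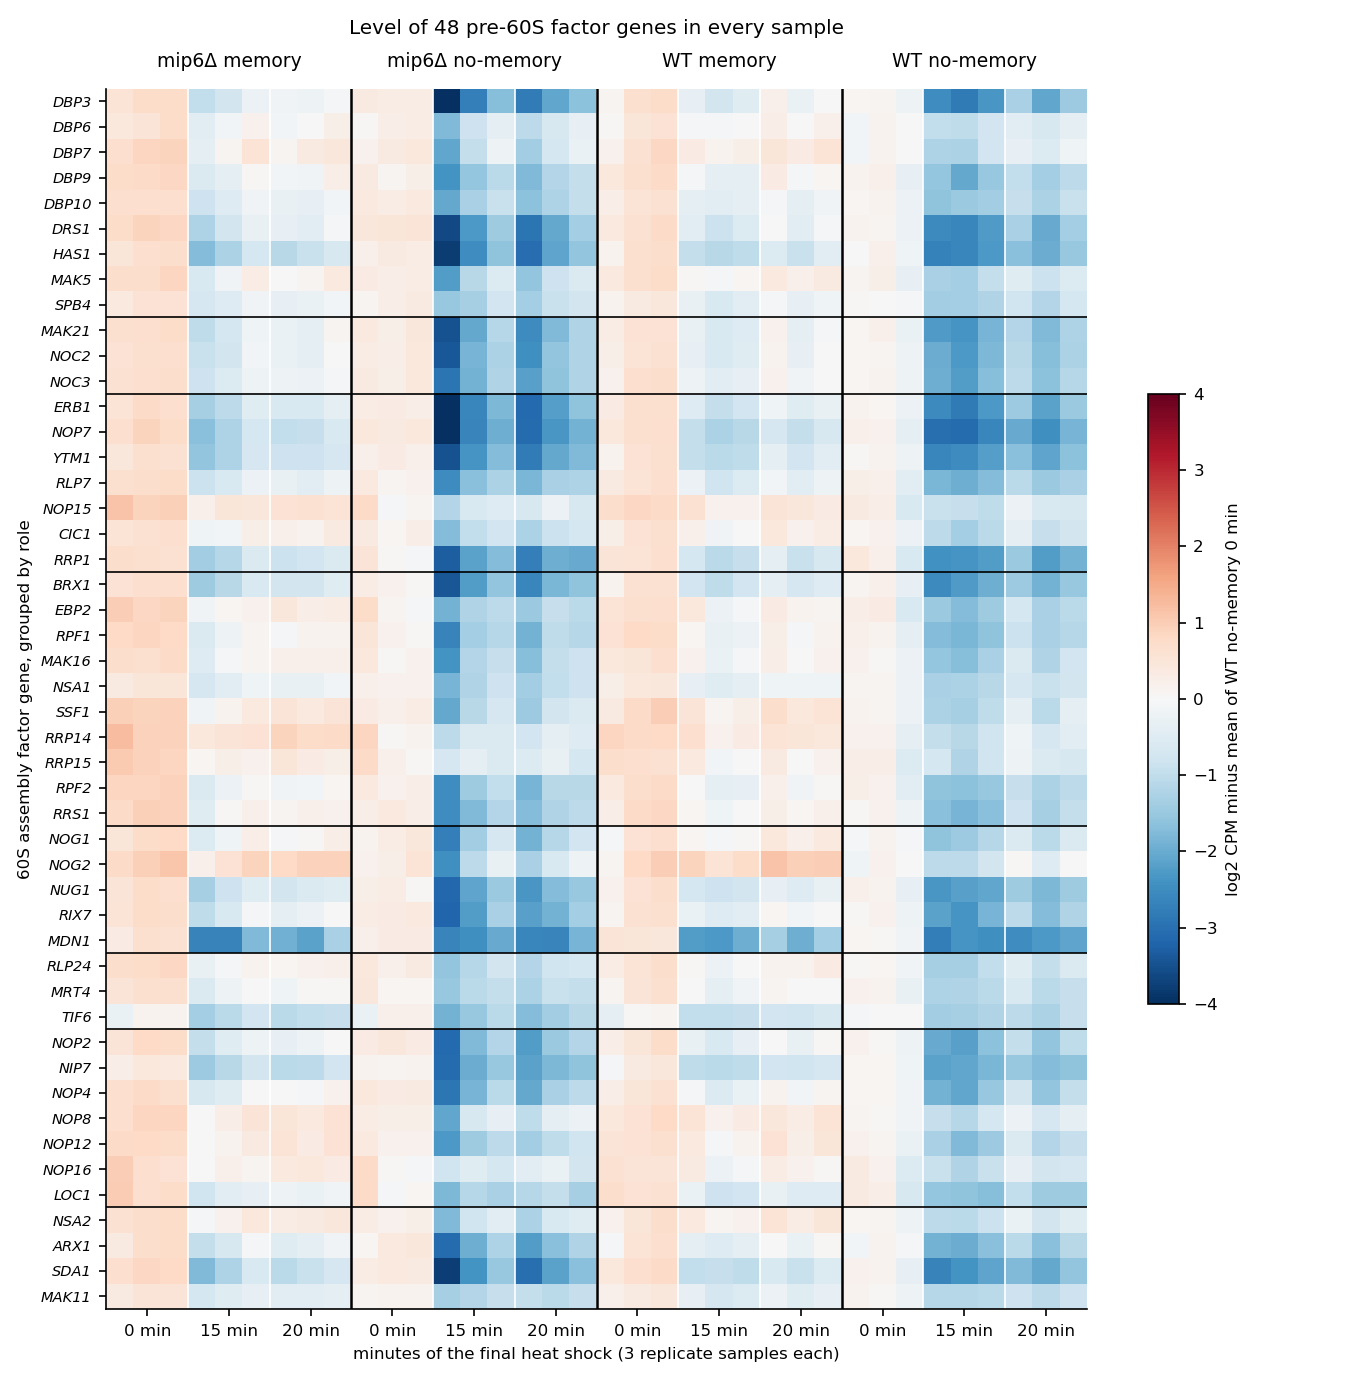
Level of each of the 48 genes (rows, by role) in each of the 36 samples (columns, by strain, condition and minutes of the final heat shock), as log2 CPM minus the gene's mean in WT no-memory cells at 0 min, with the colours ending at ±4. Blue fills the no-memory columns at 15 and 20 min and is paler in the memory columns, and replicate 1 of *mip6Δ* no-memory at 15 min is the darkest.

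The 48 genes together took a small part of each library. Their summed share of all counts was 0.369 to 0.553% in *mip6Δ* memory cells at 15 min, against 0.860 to 0.923% at 0 min. In *mip6Δ* no-memory cells it was 0.0958 to 0.246% at 15 min, against 0.583 to 0.641% at 0 min. WT memory cells had 0.415 to 0.535% at 15 min, against 0.685 to 0.893% at 0 min, and WT no-memory cells had 0.144 to 0.172% at 15 min, against 0.432 to 0.556% at 0 min. The shares at 15 min in memory and in no-memory cells did not overlap in either strain.

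Levels during the heat shock differed between the conditions for nearly all of the genes. At 15 min, 46 of 48 genes were higher in memory than in no-memory cells of *mip6Δ* (21.3% of all genes were called higher) and 46 of 48 in WT (21.7%), with median log2 differences of 1.22 and 1.39. *MDN1* and *TIF6* were the exceptions in both strains. At 20 min, 47 of 48 were higher with memory in *mip6Δ* (23%) and 47 of 48 in WT (21.8%), with medians of 1.27 and 1.09, and *TIF6* was the exception in both. The WT count at 20 min was 19 without replicate 2 of every group, and the share of all genes called in that fit is not given here. The 2 strains used separate samples, but the times and contrasts of a strain share their samples with the heat responses above.

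In recovered cells the levels leaned above those of cells that had not been heated. At 0 min all members but *TIF6* had a positive log2 difference between memory and no-memory cells in both strains, with medians of 0.41 in *mip6Δ* and 0.51 in WT, against 0.01 and 0.02 for all genes. Only 4 of 48 passed the threshold in *mip6Δ* (5.23% of all genes) and 8 of 48 in WT (5.43%), while 20 and 26 had an unadjusted p under 0.05. The 3 memory samples lay above the 3 no-memory samples for 44 of 48 genes in *mip6Δ* (15% of all genes) and for 35 of 48 in WT (16.7%). The genes called in both strains were *NOP15*, *RRP14*, *RRP15* and *MAK11*, and *RPF1*, *SSF1*, *RRS1* and *RLP24* were called in WT as well.

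These 0 min counts moved with the replicate block, with single samples and with the scaling. The share of all genes called under each of these settings is not set beside them. With the replicate number as a block they were 9 in *mip6Δ* and 13 in WT. Without replicate 2 or without replicate 3 of every group they were 0 in both strains, and without replicate 1 they were 22 in *mip6Δ* and 35 in WT. Without replicate 3 of WT no-memory at 0 min the WT count was 1, and without replicate 2 of *mip6Δ* memory at 0 min the *mip6Δ* count was 2. Without replicate 1 of *mip6Δ* no-memory at 15 min the counts were 13 in *mip6Δ* and 23 in WT. That sample is in neither 0 min comparison and reaches these counts only through the fit shared by all groups. Scaling by total counts alone gave 21 and 31, with the median of all genes shifted to 0.17 and 0.21. *HSP104* at 0 min had 173 to 596 CPM in *mip6Δ* memory cells, against 1822 to 4589 CPM in *mip6Δ* no-memory cells, and 180 to 2799 CPM in WT memory cells, against 2099 to 5140 CPM in WT no-memory cells. Replicate 1 of WT memory at 0 min was the sample at 2799 CPM, and its members' share of counts was the lowest of its group. The part of these differences in the 0 min results was not tested.

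**Figure D3:**
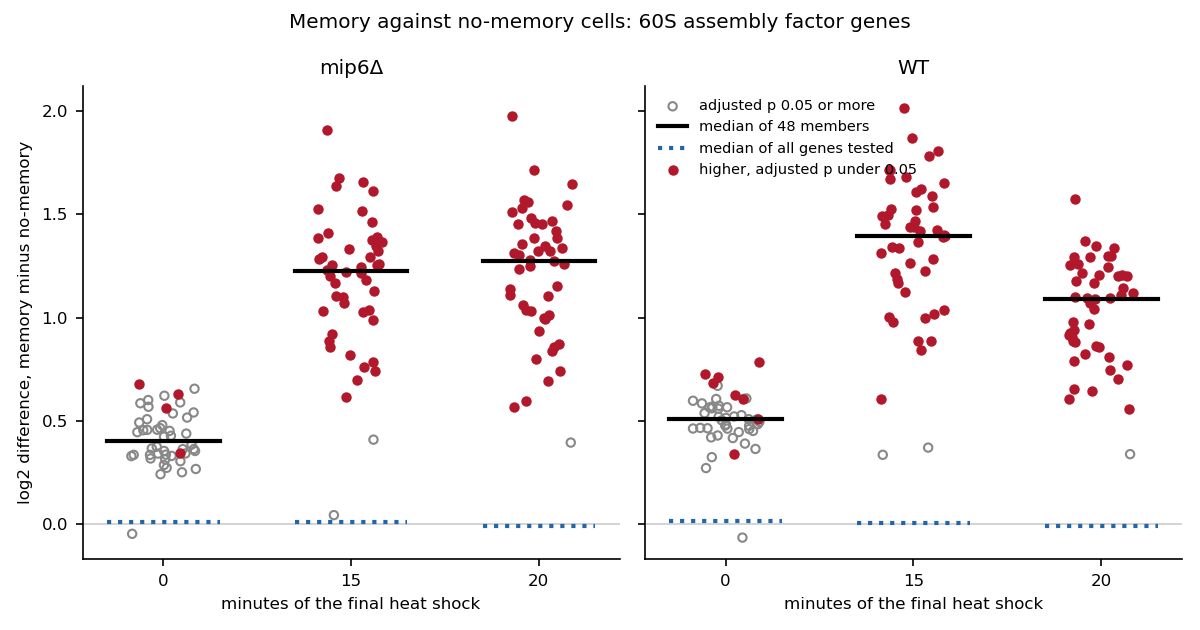
Log2 difference between memory and no-memory cells at 0, 15 and 20 min in *mip6Δ* (left) and WT (right), with 1 point per gene, filled where called higher by edgeR, the median of the 48 genes as a black line and that of all genes tested as a dotted line. The medians of the 48 genes stood at 0.41, 1.22 and 1.27 in *mip6Δ* and at 0.51, 1.39 and 1.09 in WT, all above the dotted line.

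The level difference at 15 min is the sum of the difference already present at 0 min and the difference between the 2 heat responses. For the 48 genes the median of the second term, the memory minus the no-memory log2 response, was 0.75 at 15 min in *mip6Δ* and 0.83 in WT, and 0.78 and 0.51 at 20 min. The response was more positive with memory in 47 of 48 genes at 15 min and in 48 of 48 at 20 min in both strains. For nearly all of the genes this was a smaller fall. The mean of *NOG2* did not fall in WT memory cells, with 187 CPM at 0 min, 194 CPM at 15 min and 238 CPM at 20 min. Replicate 1 at 0 min had 126 CPM, against 201 and 233 CPM in replicates 2 and 3. Without that sample the sign of the change at 15 min turned. Over all genes tested, the memory response was the more positive one in 54% (15 min) and 52.1% (20 min) in *mip6Δ* and in 52.6% (15 min) and 50.1% (20 min) in WT. These shares include genes that rose with heat, for which a weaker response with memory has the opposite sign. A share for heat-repressed genes alone is not given here. The paper reports that memory mostly dampened the changes of heat-induced and of heat-repressed genes. The exception at 15 min was *MDN1*.

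How many of these response differences passed the test gene by gene depended on the fit. In edgeR without a replicate block, 3 of 48 were called more positive with memory at 15 min in *mip6Δ* and 6 of 48 in WT. Of all genes, 7.45% and 7.34% were called in that direction, and 31 and 36 members had an unadjusted p under 0.05. At 20 min, 7 of 48 were called in *mip6Δ* (9.29% of all genes in that direction) and 0 of 48 in WT (5.88%). Here 34 and 8 members had an unadjusted p under 0.05. The counts under the settings that follow stand without the share of all genes called under the same setting, so they are not read against that share. With the replicate number as a block, edgeR called 16 in *mip6Δ* and 27 in WT at 15 min, and 21 and 0 at 20 min. DESeq2 called 8 and 15 at 15 min and 13 and 0 at 20 min, and limma 26 and 32 at 15 min and 29 and 1 at 20 min. With samples of 1 strain alone, edgeR called 1 and 37 at 15 min and 1 and 13 at 20 min. *DBP3*, *RRS1* and *NOP12* were called at 15 min in both strains without the block. The share of members called at 15 min was then below the share of all genes in *mip6Δ*, and the counts moved with single samples: without replicate 1 of *mip6Δ* no-memory at 15 min they were 1 in *mip6Δ* and 30 in WT at 15 min, and 27 and 2 at 20 min. Of these comparisons, that sample is part of the one in *mip6Δ* at 15 min alone. It reaches the others only through the fit shared by all groups. Without replicate 2 of every group all 4 counts were 0. At 15 min, the WT count was 2 without replicate 1 of every group, 1 without replicate 1 of WT memory at 0 min and 11 without replicate 3 of WT no-memory at 0 min. At 20 min, the *mip6Δ* count was 2 without replicate 1 of every group, 2 without replicate 3 of every group and 2 without replicate 2 of *mip6Δ* memory at 0 min.

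**Figure D4:**
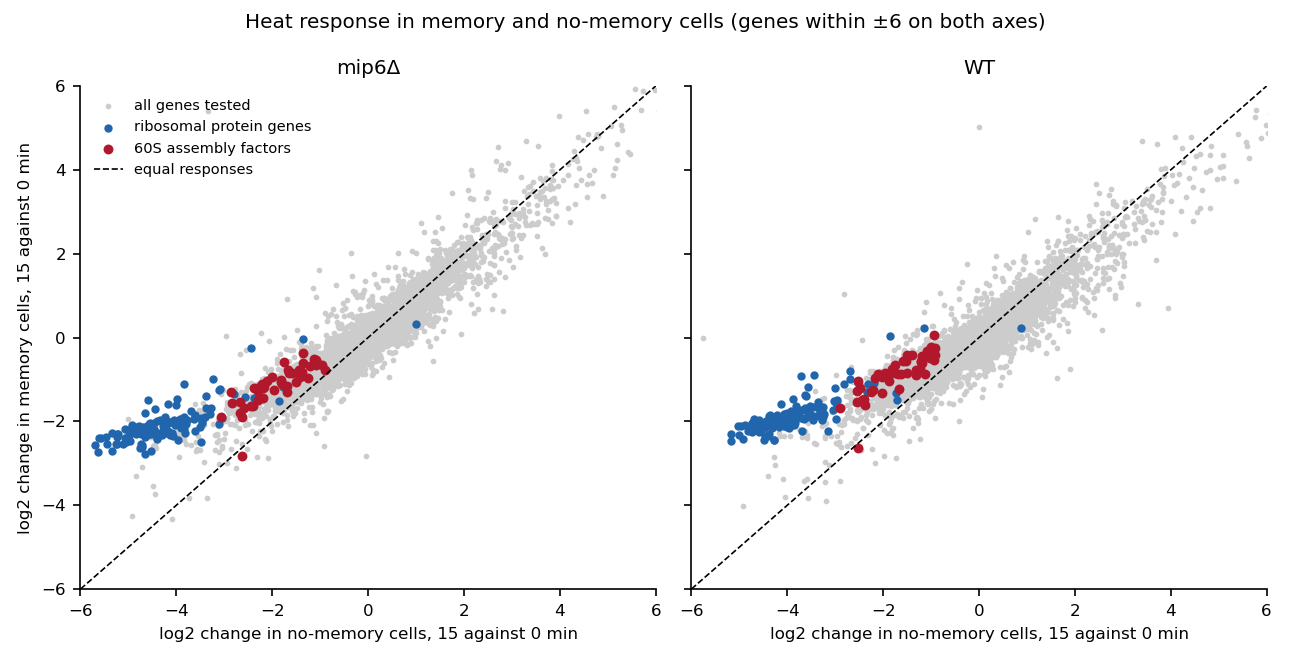
Log2 change at 15 min against 0 min in memory cells (vertical axis) and in no-memory cells (horizontal axis) for *mip6Δ* (left) and WT (right), with all genes tested in grey, ribosomal protein genes in blue and the 48 genes in red. The dashed line marks equal responses, and 47 of the 48 red points in each panel lie above it.

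The Erb1-Nop7-Ytm1 complex and the factors that bind or process the spacers beside the 5.8S and 25S rRNAs included *NOP7* and *ERB1*, which had the largest falls in no-memory cells of WT. The complex joins the pre-60S particle in the nucleolus, is needed to process the 27S pre-rRNA and is later pulled off by the AAA ATPase Mdn1. All 7 genes of this group were lower at 15 min in *mip6Δ* memory cells, in *mip6Δ* no-memory cells and in WT no-memory cells, and 6 of 7 in WT memory cells. Of all genes, 35% were called lower in *mip6Δ* memory, 37.5% in *mip6Δ* no-memory, 32.6% in WT memory and 36% in WT no-memory cells. The group's median log2 change was -1.57 and -2.44 in *mip6Δ* memory and no-memory cells, and -1.28 and -2.40 in WT memory and no-memory cells.

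*NOP7* (YGR103W, chrVII:695417-697234, plus strand) codes for the scaffold of the complex. *NOP7* in memory cells had 391, 456 and 409.9 CPM at 0 min, 77.9, 106 and 152 at 15 min and 125, 129 and 163 at 20 min in *mip6Δ*, and 330.0, 389 and 389 at 0 min, 127, 103 and 113 at 15 min and 156, 127 and 157 at 20 min in WT. For *NOP7* in no-memory cells, the values were 328, 319.5 and 329 CPM at 0 min, 13.6, 39.3 and 63.5 at 15 min and 28.9, 49.5 and 65.9 at 20 min in *mip6Δ*, and 283, 277 and 191 at 0 min, 30.6, 29.3 and 40.2 at 15 min and 61.1, 45.4 and 67.4 at 20 min in WT. Heated samples lay far below 0 min samples in every culture without overlap, and memory samples lay above no-memory samples at all 3 times in both strains. *NOP7* fell 8.38-fold in *mip6Δ* no-memory cells at 15 min (log2 -3.07 ± 0.34 SE, adjusted p = 3.89e-09, edgeR) and 7.51-fold in WT no-memory cells (log2 -2.91 ± 0.34 SE, adjusted p = 1.14e-08). The falls in memory cells were 3.74-fold in *mip6Δ* and 3.22-fold in WT, and the response differences of 1.16 and 1.22 had adjusted p-values of 0.0945 and 0.0732.

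*ERB1* (YMR049C, chrXIII:368094-370517, minus strand) codes for the WD-repeat member that links Nop7 and Ytm1. *ERB1* in memory cells had 252, 293 and 271 CPM at 0 min, 68.1, 83 and 123 at 15 min and 113, 111 and 132 at 20 min in *mip6Δ*, and 216, 267 and 270.1 at 0 min, 119, 88.5 and 102 at 15 min and 152, 123 and 141 at 20 min in WT. For *ERB1* in no-memory cells, the values were 209, 216 and 208 CPM at 0 min, 10.3, 28.4 and 49.6 at 15 min and 19.9, 37.3 and 56.8 at 20 min in *mip6Δ*, and 189, 182 and 147 at 0 min, 29.4, 24.3 and 34.8 at 15 min and 63.3, 39 and 61.9 at 20 min in WT. The order was the same as for *NOP7*, with memory samples above no-memory samples at each time and no overlap. At 15 min *ERB1* averaged 91.5 ± 28.6 CPM in *mip6Δ* memory cells and 29.4 ± 19.7 CPM in *mip6Δ* no-memory cells, and 103 ± 15.5 CPM in WT memory cells and 29.5 ± 5.28 CPM in WT no-memory cells (SD, n = 3 each). The memory differences were 1.64 ± 0.34 on the log2 scale (SE; adjusted p = 0.000375) in *mip6Δ* and 1.81 ± 0.34 on the log2 scale (SE; adjusted p = 0.000112) in WT (edgeR).

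*YTM1* (YOR272W, chrXV:832813-834195, plus strand) codes for the subunit that Mdn1 grips. *YTM1* in memory cells had 171, 196 and 190.3 CPM at 0 min, 41.7, 52.9 and 79.1 at 15 min and 69.5, 69.5 and 77.9 at 20 min in *mip6Δ*, and 138, 188 and 193 at 0 min, 64.8, 59 and 61.9 at 15 min and 95.4, 72.8 and 91.5 at 20 min in WT. For *YTM1* in no-memory cells, the values were 142, 156 and 142 CPM at 0 min, 11.2, 24.3 and 37.5 at 15 min and 18, 30.01 and 36.5 at 20 min in *mip6Δ*, and 130.1, 138 and 108 at 0 min, 20.2, 21.9 and 27.2 at 15 min and 39.4, 28.7 and 40.3 at 20 min in WT. In WT at 0 min the memory and no-memory samples overlapped, whereas at 15 and 20 min they were apart in both strains. *YTM1* fell at 15 min by 3.21-fold with and 6.03-fold without memory in *mip6Δ*, and by 2.79-fold with and 5.42-fold without memory in WT, with adjusted p-values of 3.35e-06, 2.85e-09, 2.24e-05 and 1.01e-08 in edgeR.

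Of the other spacer-processing factors, *RRP1* (YDR087C) and *RLP7* (YNL002C), the gene for a relative of the ribosomal protein uL30 on the ITS2 spacer, changed in WT no-memory cells by -2.40 and -1.87 on the log2 scale. *NOP15* (YNL110C) and *CIC1* (YHR052W), whose products also bind ITS2, had the smallest falls of the group, -1.01 and -1.17. *NOP15* was the member of the group not called in WT memory cells (-0.43, adjusted p = 0.0607, edgeR), and at 0 min it was higher in memory than in no-memory cells of both strains (0.68 with adjusted p = 0.0222 in *mip6Δ*, and 0.71 with adjusted p = 0.0168 in WT).

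Among the 9 DEAD-box RNA helicases, which unwind or clamp pre-rRNA and snoRNA duplexes, all were lower at 15 min in *mip6Δ* memory, *mip6Δ* no-memory and WT no-memory cells, and 6 of 9 in WT memory cells. The range within the group was wide, between -2.53 and -0.92 on the log2 scale in WT no-memory cells. All 9 were higher with memory at 15 min in both strains.

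*DBP3* (YGL078C, chrVII:360288-361859, minus strand) codes for a helicase that speeds cleavage in the ITS1 spacer and that cells can live without. *DBP3* in memory cells had 214, 242 and 244 CPM at 0 min, 73.5, 87.5 and 123 at 15 min and 131, 127 and 142 at 20 min in *mip6Δ*, and 157, 228 and 243 at 0 min, 116, 87 and 104 at 15 min and 169.5, 120.0 and 148 at 20 min in WT. For *DBP3* in no-memory cells, the values were 187, 179.8 and 180.3 CPM at 0 min, 8.57, 22 and 44.9 at 15 min and 21.1, 34.2 and 46.3 at 20 min in *mip6Δ*, and 154, 158 and 127 at 0 min, 26.2, 20.4 and 29.3 at 15 min and 59.3, 34.6 and 53.1 at 20 min in WT. Replicate 1 of *mip6Δ* no-memory at 15 min, at 8.57 CPM, was the lowest sample, and in WT at 0 min the conditions overlapped. *DBP3* had the largest memory difference of the 48 genes at 15 min in both strains (log2 1.91 ± 0.34 SE, adjusted p = 6.51e-05 in *mip6Δ* and log2 2.02 ± 0.34 SE, adjusted p = 2.81e-05 in WT, edgeR). Its heat response also differed with memory, by 1.55 in *mip6Δ* (adjusted p = 0.0303) and 1.501 in WT (adjusted p = 0.0340) at 15 min.

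*HAS1* (YMR290C, chrXIII:850074-851591, minus strand) codes for a helicase that serves both subunits. *HAS1* in memory cells had 309.6, 355 and 362 CPM at 0 min, 66.2, 91.1 and 135 at 15 min and 102, 119 and 142 at 20 min in *mip6Δ*, and 244, 343 and 359 at 0 min, 114, 101 and 108 at 15 min and 152, 119.6 and 161 at 20 min in WT. For *HAS1* in no-memory cells, the values were 255, 281 and 273 CPM at 0 min, 16, 39.3 and 71.7 at 15 min and 26.9, 51.5 and 73.4 at 20 min in *mip6Δ*, and 218, 252 and 195 at 0 min, 33.5, 36.4 and 44.8 at 15 min and 69.7, 55.3 and 77.8 at 20 min in WT. *HAS1* fell in every culture with no overlap between 15 and 0 min, by 3.51-fold in *mip6Δ* memory, 6.37-fold in *mip6Δ* no-memory, 2.92-fold in WT memory and 5.79-fold in WT no-memory cells. Its conditions overlapped in *mip6Δ* at 15 min and in WT at 0 min. The memory differences at 15 min were 1.202 ± 0.33 on the log2 scale (SE; adjusted p = 0.00494) in *mip6Δ* and 1.49 ± 0.33 on the log2 scale (SE; adjusted p = 0.000693) in WT (edgeR).

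*DBP10* (YDL031W, chrIV:394217-397204, plus strand) codes for a helicase that acts near the future peptidyl transferase centre. *DBP10* in memory cells had 175, 177 and 178 CPM at 0 min, 62.5, 77.2 and 101 at 15 min and 89.7, 88.5 and 103 at 20 min in *mip6Δ*, and 132, 161 and 168 at 0 min, 86.8, 83.6 and 87 at 15 min and 105, 84.1 and 101 at 20 min in WT. For *DBP10* in no-memory cells, the values were 144, 137 and 145 CPM at 0 min, 26.8, 45.3 and 60.2 at 15 min and 35.6, 46.7 and 57 at 20 min in *mip6Δ*, and 117, 123 and 94.3 at 0 min, 36, 39.6 and 42.3 at 15 min and 58.6, 45.7 and 59.8 at 20 min in WT. Memory samples were above no-memory samples at each time in both strains. Its change at 15 min was -1.15 and -1.69 on the log2 scale in *mip6Δ* memory and no-memory cells, and -0.84 and -1.51 in WT memory and no-memory cells, each called by edgeR.

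*DBP6* (YNR038W, chrXIV:695595-697484, plus strand) codes for an early helicase and was among the genes with the smallest falls at 15 min in no-memory cells. *DBP6* in memory cells had 115, 122 and 143 CPM at 0 min, 64.5, 79.9 and 96.1 at 15 min and 78.9, 87.2 and 100.1 at 20 min in *mip6Δ*, and 88.8, 119.7 and 129 at 0 min, 81.2, 83.4 and 86.5 at 15 min and 103, 86.7 and 99 at 20 min in WT. For *DBP6* in no-memory cells, the values were 89.1, 102 and 105 CPM at 0 min, 25.4, 48.1 and 66.1 at 15 min and 41.6, 54.6 and 68.5 at 20 min in *mip6Δ*, and 78.7, 93.5 and 85 at 0 min, 43.1, 42.7 and 49.8 at 15 min and 64.4, 54.4 and 66 at 20 min in WT. The WT memory samples at 15 min were below those at 0 min without overlap, but the change of -0.43 did not pass (adjusted p = 0.0746, edgeR). In WT no-memory cells *DBP6* fell 1.90-fold (log2 -0.92 ± 0.21 SE, adjusted p = 0.000326). The conditions overlapped in *mip6Δ* at 15 min and in WT at 0 min.

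Of the remaining helicases, *DRS1* (YLL008W) changed by -2.48 and *DBP9* (YLR276C), an early pre-60S helicase, by -1.70 on the log2 scale in WT no-memory cells at 15 min. *SPB4* (YFL002C), *MAK5* (YBR142W) and *DBP7* (YKR024C) changed by -1.32, -1.21 and -1.08. *DRS1* also had a called response difference at 20 min in *mip6Δ* (1.37, adjusted p = 0.0479, edgeR). *MAK5* and *DBP7* were not called in WT memory cells at 15 min, with -0.57 and -0.32.

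The 3 Noc proteins are HEAT-repeat factors that form successive pairs on pre-60S particles, Noc1 with Noc2 early and Noc2 with Noc3 later. Their genes moved as a tight group: at 15 min all were lower in all 4 cultures, with log2 changes between -2.16 and -1.95 in WT no-memory cells and between -0.96 and -0.86 in WT memory cells. In these cultures 32.6 to 37.5% of all genes were called lower.

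*MAK21* (YDR060W, chrIV:570649-573726, plus strand) codes for Noc1. *MAK21* in memory cells had 266, 271 and 284 CPM at 0 min, 83.7, 105 and 149.6 at 15 min and 140.2, 128 and 184 at 20 min in *mip6Δ*, and 209, 254 and 252 at 0 min, 137, 111 and 119.8 at 15 min and 189, 130.3 and 166 at 20 min in WT. For *MAK21* in no-memory cells, the values were 220.2, 200.2 and 232 CPM at 0 min, 15.3, 40.9 and 76.6 at 15 min and 29.5, 50.4 and 73.8 at 20 min in *mip6Δ*, and 179, 193 and 141 at 0 min, 35.3, 32.8 and 46.6 at 15 min and 75.2, 50.3 and 71.7 at 20 min in WT. Memory samples were above no-memory samples at each time, and heated samples were below 0 min samples, with no overlap in either strain at 15 min. *MAK21* was higher with memory at 15 min by 1.35 ± 0.33 on the log2 scale (SE; adjusted p = 0.00220) in *mip6Δ* and 1.68 ± 0.34 on the log2 scale (SE; adjusted p = 0.000238) in WT (edgeR).

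*NOC2* (YOR206W, chrXV:727512-729644, plus strand) codes for the shared partner. *NOC2* in memory cells had 229, 240.3 and 246 CPM at 0 min, 82.8, 93 and 142 at 15 min and 129, 117 and 153 at 20 min in *mip6Δ*, and 182, 224 and 233 at 0 min, 122, 100.3 and 108 at 15 min and 169, 123 and 154 at 20 min in WT. For *NOC2* in no-memory cells, the values were 188, 184 and 207 CPM at 0 min, 14.6, 42.2 and 64.4 at 15 min and 28.2, 51.3 and 66 at 20 min in *mip6Δ*, and 162, 167 and 134 at 0 min, 38.8, 31.5 and 43.7 at 15 min and 71.3, 47 and 63.1 at 20 min in WT. The pattern was that of *MAK21*, with the conditions apart at all 3 times. *NOC2* was 2.62-fold higher with memory in *mip6Δ* and 2.90-fold higher in WT at 15 min (adjusted p = 0.000798 and 0.000251, edgeR). *NOC3* (YLR002C), the later partner, differed by 1.33 and 1.62 on the log2 scale, and its response difference was called in WT at 15 min (1.10, adjusted p = 0.0466) and in *mip6Δ* at 20 min (1.12, adjusted p = 0.0368).

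The Brix-domain proteins work in pairs with partner proteins: Brx1 with Ebp2, Rpf1 with Mak16, Ssf1 with Rrp15 beside Rrp14, and Rpf2 with Rrs1, which load the 5S RNP. All 10 genes of this group were higher with memory at 15 min in both strains, with medians of 1.26 in *mip6Δ* and 1.43 in WT. The heat shock lowered all 10 in 3 of the cultures at 15 min and 9 of 10 in WT memory cells. Over all genes, 21.3% (*mip6Δ*) and 21.7% (WT) were called higher with memory, and 32.6 to 37.5% were called lower with heat.

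*BRX1* (YOL077C, chrXV:185848-186723, minus strand) had the largest fall of the group in no-memory cells. *BRX1* in memory cells had 236, 249 and 249 CPM at 0 min, 58.3, 73.5 and 104 at 15 min and 94.4, 94.5 and 111 at 20 min in *mip6Δ*, and 174, 238 and 238 at 0 min, 93.2, 77.7 and 91.9 at 15 min and 121, 99 and 109 at 20 min in WT. For *BRX1* in no-memory cells, the values were 193, 178 and 163 CPM at 0 min, 14.8, 33.3 and 53 at 15 min and 25.5, 44.1 and 51 at 20 min in *mip6Δ*, and 171, 182 and 124 at 0 min, 26.7, 32.7 and 40.7 at 15 min and 56.9, 42.7 and 55.1 at 20 min in WT. Heated and 0 min samples did not overlap, and the conditions overlapped in WT at 0 min alone among the 6 memory comparisons. *BRX1* fell 3.11-fold and 5.28-fold in *mip6Δ* memory and no-memory cells at 15 min, and 2.47-fold and 4.77-fold in WT memory and no-memory cells (edgeR, adjusted p = 8.62e-06, 2.09e-08, 0.000171 and 7.21e-08). Its partner *EBP2* (YKL172W) changed by -0.55 in WT memory and -1.59 in WT no-memory cells on the log2 scale, and the difference of 1.04 was called (adjusted p = 0.0307).

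*MAK16* (YAL025C, chrI:100225-101145, minus strand) is needed for the 60S subunit and pairs with Rpf1. *MAK16* in memory cells had 117, 114 and 122 CPM at 0 min, 51.1, 68.2 and 78.4 at 15 min and 83.8, 83.7 and 84 at 20 min in *mip6Δ*, and 97.7, 100.3 and 116 at 0 min, 82.1, 59.96 and 69.4 at 15 min and 86.7, 72.9 and 81.5 at 20 min in WT. For *MAK16* in no-memory cells, the values were 96.2, 74.1 and 82.4 CPM at 0 min, 13.7, 32 and 38.3 at 15 min and 22.4, 37.5 and 40.6 at 20 min in *mip6Δ*, and 81.3, 75.4 and 61.9 at 0 min, 25, 22.1 and 29.3 at 15 min and 48.6, 31.7 and 42.7 at 20 min in WT. Memory samples were above no-memory samples at all 3 times in both strains. *MAK16* changed at 15 min by -0.84 and -1.59 in *mip6Δ* memory and no-memory cells, and by -0.57 and -1.52 in WT memory and no-memory cells on the log2 scale, all called. *RPF1* (YHR088W) and *NSA1* (YGL111W), whose products sit in the same subcomplex, changed by -1.75 and -1.24 in WT no-memory cells, and *RPF1* was called at 0 min in WT memory cells (0.69, adjusted p = 0.0482, edgeR).

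*RPF2* (YKR081C, chrXI:591506-592540, minus strand) and *RRS1* (YOR294W, chrXV:868340-868951, plus strand) code for the pair that brings the 5S RNP. *RPF2* in memory cells had 146, 148 and 152 CPM at 0 min, 53.8, 68.9 and 84.4 at 15 min and 72.9, 74.2 and 85.2 at 20 min in *mip6Δ*, and 106, 133 and 138 at 0 min, 80.8, 62.6 and 64.2 at 15 min and 93.8, 73.3 and 83.9 at 20 min in WT. For *RPF2* in no-memory cells, the values were 106, 90.6 and 97 CPM at 0 min, 14.3, 30.02 and 40.5 at 15 min and 22.4, 37.4 and 37.7 at 20 min in *mip6Δ*, and 95.9, 91 and 60.5 at 0 min, 26.6, 25.7 and 28.2 at 15 min and 43, 33.5 and 38.9 at 20 min in WT. For both genes the conditions were apart at each time in both strains. *RRS1* in memory cells had 112, 129.9 and 127 CPM at 0 min, 48, 68.3 and 76 at 15 min and 71.9, 76.4 and 75 at 20 min in *mip6Δ*, and 80.2, 112 and 118 at 0 min, 70.8, 59.6 and 65.9 at 15 min and 79.1, 69.9 and 77 at 20 min in WT. For *RRS1* in no-memory cells, the values were 79.7, 87 and 79.4 CPM at 0 min, 11.9, 19.7 and 29.3 at 15 min and 19.9, 29.1 and 32.4 at 20 min in *mip6Δ*, and 68.2, 74.6 and 57.8 at 0 min, 20.8, 18.2 and 20.8 at 15 min and 37.6, 26.6 and 34 at 20 min in WT. At 15 min the 6 no-memory samples were between 11.9 and 29.3 CPM for *RRS1* and between 14.3 and 40.5 CPM for *RPF2*. *RPF2* was higher with memory by 1.28 ± 0.24 on the log2 scale (SE; adjusted p = 0.000111) in *mip6Δ* and 1.37 ± 0.24 on the log2 scale (SE; adjusted p = 4.57e-05) in WT (edgeR). *RRS1* differed by 1.65 ± 0.21 on the log2 scale (SE; adjusted p = 7.89e-07) in *mip6Δ* and 1.72 ± 0.21 on the log2 scale (SE; adjusted p = 6.26e-07) in WT, and its response difference was called at 15 min in both strains (1.07, adjusted p = 0.0189, in *mip6Δ* and 1.09, adjusted p = 0.0159, in WT).

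*RRP15* (YPR143W, chrXVI:818323-819075, plus strand) was among the genes with the smallest changes. *RRP15* in memory cells had 69.2, 63.2 and 60.6 CPM at 0 min, 35.7, 39.7 and 37.9 at 15 min and 47.1, 42.6 and 39.8 at 20 min in *mip6Δ*, and 54.5, 53.1 and 51.1 at 0 min, 44.5, 31.2 and 33 at 15 min and 43, 34.3 and 37.6 at 20 min in WT. For *RRP15* in no-memory cells, the values were 57.2, 39 and 34.4 CPM at 0 min, 21.1, 26.2 and 22.4 at 15 min and 23.2, 27.6 and 20.6 at 20 min in *mip6Δ*, and 40.7, 40.5 and 23 at 0 min, 20.8, 14.5 and 19.2 at 15 min and 29.1, 22.4 and 21.5 at 20 min in WT. Its samples were nevertheless apart between 15 and 0 min in each culture and between the conditions at each time. *RRP15* was already higher in recovered cells at 0 min (log2 0.56 ± 0.18 SE, adjusted p = 0.0379 in *mip6Δ* and log2 0.61 ± 0.19 SE, adjusted p = 0.0260 in WT, edgeR), and its response difference at 15 min was 0.14 in *mip6Δ* and 0.39 in WT (adjusted p = 0.794 and 0.358). *RRP14* (YKL082C) was called at 0 min in both strains and *SSF1* (YHR066W) in WT. *RRP14* differed by 0.63 in *mip6Δ* and 0.79 in WT with adjusted p-values of 0.0151 and 0.00363, and *SSF1* by 0.66 and 0.72 with 0.0529 and 0.0327. *SSF1* shares 92.2% of its coding bases with its copy *SSF2* (YDR312W) over its whole length, so reads may have been divided between them.

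The GTPases Nog1, Nog2 and Nug1 and the AAA ATPases Rix7 and Mdn1 drive checkpoints and the removal of factors. This group held *MDN1*, which like *TIF6* was not called higher with memory at 15 min. It also held *NOG2*, whose fall at 15 min was not called in memory cells of either strain, in WT beside other members. At 15 min 4 of 5 genes were higher with memory in both strains, beside 21.3% (*mip6Δ*) and 21.7% (WT) of all genes. The fall at 15 min was called for 4 of 5 in *mip6Δ* memory, 5 of 5 in both no-memory cultures and 3 of 5 in WT memory cells. Between 32.6 and 37.5% of all genes were called lower in these cultures.

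*NOG2* (YNR053C, chrXIV:721120-723112, minus strand) codes for the GTPase that guards the late nuclear particle until its RNA is folded. *NOG2* in memory cells had 198, 226 and 253 CPM at 0 min, 135, 173 and 218 at 15 min and 201, 219.7 and 222 at 20 min in *mip6Δ*, and 126, 201 and 233 at 0 min, 218, 170.4 and 193 at 15 min and 256, 225 and 232 at 20 min in WT. For *NOG2* in no-memory cells, the values were 131, 138 and 171 CPM at 0 min, 21.2, 56.4 and 94.1 at 15 min and 47.4, 76.4 and 102 at 20 min in *mip6Δ*, and 103, 131 and 118 at 0 min, 55.8, 56.5 and 70.3 at 15 min and 119.5, 81.5 and 114 at 20 min in WT. In memory cells of both strains the 15 min and 0 min samples overlapped, whereas in no-memory cells all 15 min samples were lower. *NOG2* had a log2 change of -0.37 in *mip6Δ* memory cells (adjusted p = 0.290, edgeR) and of 0.06 in WT memory cells (adjusted p = 0.883). In no-memory cells it changed by -1.36 in *mip6Δ* (adjusted p = 0.000307) and -0.94 in WT (adjusted p = 0.00796). The WT memory value was -0.16 without replicate 1 of WT memory at 0 min, the sample that stands apart in *HSP104*. The response differences of 0.99 and 1.000 did not pass (adjusted p = 0.147 and 0.131). *NOG2* has 2 coding exons, and the snoRNA gene *SNR191* overlaps it on the same strand.

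*NOG1* (YPL093W, chrXVI:370978-372921, plus strand) codes for a GTPase that spans the pre-60S particle and binds its RNA at several sites. *NOG1* in memory cells had 399.9, 479 and 498 CPM at 0 min, 199, 257 and 350.3 at 15 min and 279, 301 and 345 at 20 min in *mip6Δ*, and 276, 430.3 and 462 at 0 min, 306, 271 and 296 at 15 min and 384, 331 and 381 at 20 min in WT. For *NOG1* in no-memory cells, the values were 321, 358 and 397 CPM at 0 min, 43.6, 110.3 and 182 at 15 min and 78.5, 132 and 171 at 20 min in *mip6Δ*, and 278, 316 and 274 at 0 min, 93.8, 105 and 132 at 15 min and 192, 137 and 193 at 20 min in WT. In WT memory cells the 15 min samples overlapped with those at 0 min, and in WT the conditions overlapped at 0 min. *NOG1* changed by -0.77 in *mip6Δ* memory, -1.68 in *mip6Δ* no-memory and -1.39 in WT no-memory cells on the log2 scale, and had -0.42 in WT memory cells (adjusted p = 0.224, edgeR).

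*MDN1* (YLR106C, chrXII:349006-363738, minus strand) codes for the giant dynein-like ATPase also known as Rea1. *MDN1* in memory cells had 307, 379 and 372 CPM at 0 min, 38.4, 38.3 and 72.1 at 15 min and 64.7, 55.5 and 99.7 at 20 min in *mip6Δ*, and 346, 342 and 332 at 0 min, 52, 50.004 and 63 at 15 min and 96.5, 63 and 94.9 at 20 min in WT. For *MDN1* in no-memory cells, the values were 278, 306 and 305 CPM at 0 min, 39.5, 44.5 and 60.2 at 15 min and 39.7, 38.7 and 66.8 at 20 min in *mip6Δ*, and 258, 252 and 222 at 0 min, 35.5, 47.4 and 44.5 at 15 min and 43.7, 49.6 and 55.9 at 20 min in WT. In *mip6Δ* the conditions overlapped at 15 and 20 min, and in WT at 15 min the memory samples lay just above the no-memory samples. Its falls were 7.12-fold and 6.16-fold in *mip6Δ* memory and no-memory cells, and 6.18-fold and 5.74-fold in WT memory and no-memory cells, with adjusted p-values of 5.50e-11, 1.27e-10, 2.67e-10 and 3.32e-10 (edgeR). The response differences were -0.21 ± 0.32 and -0.11 ± 0.32 on the log2 scale (SE; adjusted p = 0.739 and 0.859). At 20 min *MDN1* was higher with memory in *mip6Δ* (0.60, adjusted p = 0.0354) and WT (0.77, adjusted p = 0.00812).

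*RIX7* (YLL034C) codes for the AAA ATPase that removes Nsa1, and *NUG1* (YER006W) for a GTPase of the nucleolar particle. *RIX7* changed by -1.197 and -2.38 in *mip6Δ* memory and no-memory cells, and by -0.87 and -2.11 in WT memory and no-memory cells on the log2 scale. Its response difference was called in WT at 15 min (1.25, adjusted p = 0.0405, edgeR) and in *mip6Δ* at 20 min (1.24, adjusted p = 0.0359). *NUG1* was higher with memory at 15 min by 1.25 in *mip6Δ* and 1.44 in WT.

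The placeholders Rlp24 and Mrt4 resemble ribosomal proteins and give way to them later, and Tif6 keeps the immature 60S subunit from joining the 40S subunit. All 3 genes fell at 15 min in all 4 cultures, in which 32.6 to 37.5% of all genes were called lower. *RLP24* (YLR009W) and *MRT4* (YKL009W) were higher with memory at 15 min in both strains, by 1.04 and 0.92 in *mip6Δ* and by 1.17 and 1.002 in WT on the log2 scale.

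*TIF6* (YPR016C, chrXVI:592332-593069, minus strand) behaved otherwise. *TIF6* in memory cells had 268, 352 and 352 CPM at 0 min, 125, 153 and 188 at 15 min and 152, 162 and 171 at 20 min in *mip6Δ*, and 247, 333 and 345 at 0 min, 163, 161 and 169 at 15 min and 189, 185 and 205 at 20 min in WT. For *TIF6* in no-memory cells, the values were 268, 367 and 368 CPM at 0 min, 86.9, 112 and 152 at 15 min and 96.9, 124 and 148 at 20 min in *mip6Δ*, and 313, 327 and 326 at 0 min, 123, 129 and 138 at 15 min and 156, 133 and 169 at 20 min in WT. Memory and no-memory samples overlapped at 0 min in both strains and at 15 min in *mip6Δ*, and at 20 min they lay close together without overlap. *TIF6* had memory differences of -0.05 in *mip6Δ* and -0.06 in WT at 0 min, and of 0.41 ± 0.17 on the log2 scale (SE; adjusted p = 0.0589) and 0.34 ± 0.17 on the log2 scale (SE; adjusted p = 0.118) at 15 min (edgeR). At 20 min they were 0.40 and 0.34 (adjusted p = 0.0612 and 0.110). The sign at 0 min turned with the scaling by total counts, which gave 0.12 in both strains. The fall of *TIF6* at 15 min was 2.08-fold in *mip6Δ* memory, 2.86-fold in *mip6Δ* no-memory, 1.87-fold in WT memory and 2.47-fold in WT no-memory cells.

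**Figure D5:**
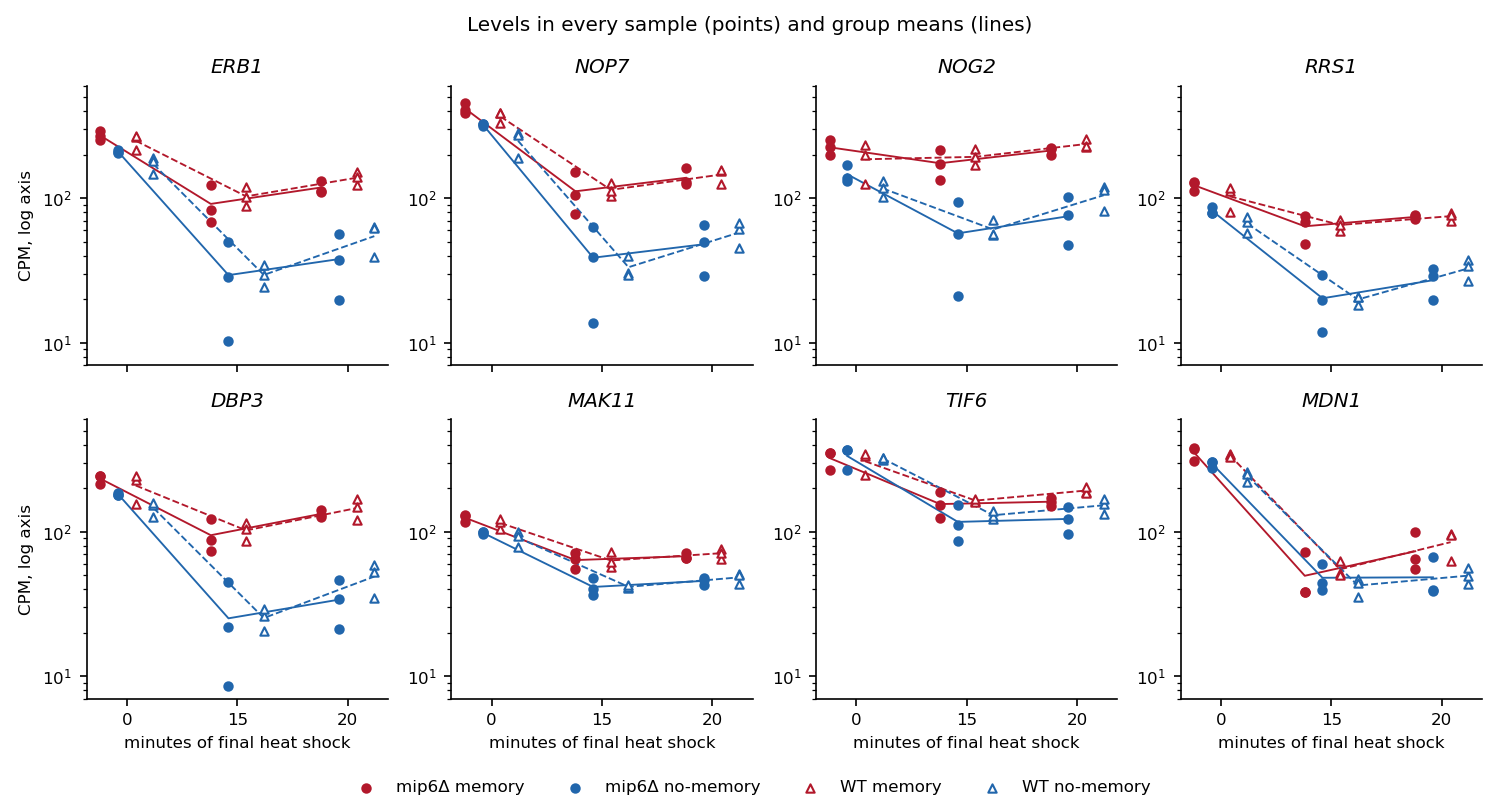
CPM of 8 of the genes in every sample on a log axis (points, 3 per group), with lines through the group means, at 0, 15 and 20 min of the final heat shock in memory (red) and no-memory (blue) cells of *mip6Δ* (filled circles) and WT (open triangles). At 15 min the red and blue points of each strain are apart for *ERB1*, *NOP7* and *RRS1*, and those of *mip6Δ* overlap for *TIF6* and *MDN1*.

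The RNA-binding factors and the methyltransferase Nop2 form a mixed group of 7 genes. All 7 were higher with memory at 15 min in both strains, with medians of 1.10 in *mip6Δ* and 1.27 in WT. At 15 min all 7 fell in *mip6Δ* memory and in both no-memory cultures, and 5 of 7 in WT memory cells. Over all genes, 21.3% (*mip6Δ*) and 21.7% (WT) were called higher with memory at 15 min, and 32.6 to 37.5% lower with heat.

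*NOP2* (YNL061W, chrXIV:510540-512396, plus strand) codes for the enzyme that methylates a cytosine of the 25S rRNA. *NOP2* in memory cells had 252, 306 and 290.4 CPM at 0 min, 90.4, 125 and 153 at 15 min and 139, 152 and 175 at 20 min in *mip6Δ*, and 211, 246 and 296 at 0 min, 144, 116 and 141 at 15 min and 179, 145 and 182 at 20 min in WT. For *NOP2* in no-memory cells, the values were 220.5, 242 and 219.9 CPM at 0 min, 20.4, 52.2 and 77.4 at 15 min and 37.3, 63.6 and 77.6 at 20 min in *mip6Δ*, and 196, 181 and 154 at 0 min, 43.1, 38.8 and 56.9 at 15 min and 90.3, 58.5 and 87.6 at 20 min in WT. The conditions were apart at each time in both strains. *NOP2* fell 2.30-fold and 4.54-fold in *mip6Δ* memory and no-memory cells at 15 min, and 1.88-fold and 3.83-fold in WT memory and no-memory cells, each called by edgeR.

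*NIP7* (YPL211W, chrXVI:153495-154040, plus strand) and *NOP8* (YOL144W, chrXV:53098-54552, plus strand) code for proteins that bind each other in early pre-60S particles. *NIP7* in memory cells had 112, 125 and 123 CPM at 0 min, 34.1, 42.6 and 55.9 at 15 min and 44.4, 44.9 and 54.7 at 20 min in *mip6Δ*, and 90.03, 120.0 and 127 at 0 min, 45.9, 44.3 and 45.4 at 15 min and 55.1, 53.5 and 58.5 at 20 min in WT. For *NIP7* in no-memory cells, the values were 102, 99.7 and 103 CPM at 0 min, 11.1, 23.2 and 32.4 at 15 min and 21.1, 26.8 and 30.6 at 20 min in *mip6Δ*, and 98.4, 99 and 82 at 0 min, 21.2, 21.8 and 25.9 at 15 min and 32.3, 27.7 and 30.6 at 20 min in WT. The conditions of *NIP7* overlapped in WT at 0 min. *NOP8* in memory cells had 55.1, 62.4 and 62.8 CPM at 0 min, 34.9, 41.3 and 49.2 at 15 min and 48.2, 45.2 and 52 at 20 min in *mip6Δ*, and 45.9, 52 and 59.6 at 0 min, 50.1, 38.6 and 43.6 at 15 min and 47.7, 42.8 and 50.7 at 20 min in WT. For *NOP8* in no-memory cells, the values were 42.8, 40.7 and 40.9 CPM at 0 min, 8.24, 22.2 and 27.8 at 15 min and 17, 26.4 and 29.5 at 20 min in *mip6Δ*, and 37, 35.9 and 31.1 at 0 min, 18.2, 15.8 and 21 at 15 min and 29.6, 21.5 and 26.7 at 20 min in WT. *NOP8* was low throughout, and its WT memory samples at 15 min overlapped with those at 0 min. *NIP7* had the largest fall of its group in WT no-memory cells (log2 -2.02 ± 0.22 SE, adjusted p = 3.70e-09, edgeR) and *NOP8* the smallest of all 48 genes (log2 -0.92 ± 0.24 SE, adjusted p = 0.00136). In WT memory cells the changes were -1.31 (adjusted p = 4.56e-06) and -0.25 (adjusted p = 0.357).

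*NOP12* (YOL041C), which codes for a factor of 5.8S rRNA processing, had called response differences at 15 min in both strains (1.16, adjusted p = 0.00820, in *mip6Δ* and 1.08, adjusted p = 0.0137, in WT, edgeR), with changes of -0.42 (not called) in WT memory and -1.499 in WT no-memory cells. *NOP4* (YPL043W), the gene for a protein with RNA recognition motifs, changed by -0.74 and -1.81 in WT memory and no-memory cells. *NOP16* (YER002W) and *LOC1* (YFR001W), which is also known for mRNA localization, changed by -1.03 and -1.67 in WT no-memory cells, and their response differences at 15 min were 0.54 and 0.45 (adjusted p = 0.198 and 0.358).

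The last group, of 4 genes, holds later nuclear and export factors. All 4 were higher with memory at 15 min in both strains, where 21.3% (*mip6Δ*) and 21.7% (WT) of all genes were called higher. *SDA1* (YGR245C, chrVII:979765-982068, minus strand) is required for the late nuclear steps and the export of the 60S subunit. *SDA1* in memory cells had 217, 244 and 239 CPM at 0 min, 40.4, 58.5 and 90.1 at 15 min and 65, 73.3 and 85.9 at 20 min in *mip6Δ*, and 183, 216 and 233 at 0 min, 68.7, 71.9 and 67.5 at 15 min and 89.4, 74.3 and 92.6 at 20 min in WT. For *SDA1* in no-memory cells, the values were 169, 179 and 174 CPM at 0 min, 10.1, 26.1 and 47.7 at 15 min and 16.7, 31.2 and 42.9 at 20 min in *mip6Δ*, and 154, 151 and 109 at 0 min, 21.4, 26.2 and 31.8 at 15 min and 40.2, 32.7 and 45.7 at 20 min in WT. Its conditions overlapped in *mip6Δ* at 15 min, where 1 no-memory sample reached the memory range, and were apart in the other 5 comparisons. *SDA1* fell 3.71-fold in *mip6Δ* memory, 6.20-fold in *mip6Δ* no-memory, 3.04-fold in WT memory and 5.22-fold in WT no-memory cells at 15 min (edgeR, all called).

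*MAK11* (YKL021C, chrXI:397344-398750, minus strand) codes for a WD-repeat protein and was the gene with neither promoter element. *MAK11* in memory cells had 117, 130.1 and 129 CPM at 0 min, 55.2, 64.5 and 71.4 at 15 min and 66.2, 65.8 and 71.4 at 20 min in *mip6Δ*, and 105, 117 and 123 at 0 min, 72, 56.6 and 61.4 at 15 min and 76.5, 65.2 and 71.7 at 20 min in WT. For *MAK11* in no-memory cells, the values were 97, 99.6 and 99.3 CPM at 0 min, 36.4, 39.98 and 48.1 at 15 min and 46.4, 42.7 and 48 at 20 min in *mip6Δ*, and 100.2, 94 and 79 at 0 min, 40.9, 41.3 and 42.7 at 15 min and 51.1, 43.5 and 50.5 at 20 min in WT. Samples of the 2 conditions and of the heated and 0 min groups were apart in each of these comparisons, and the replicates lay close together. *MAK11* changed by -1.25 ± 0.11 on the log2 scale (SE; adjusted p = 3.03e-11) in *mip6Δ* no-memory and -1.13 ± 0.11 on the log2 scale (SE; adjusted p = 2.77e-10) in WT no-memory cells (edgeR), and by -0.97 and -0.86 in memory cells. Its memory difference was already 0.34 in *mip6Δ* and 0.34 in WT at 0 min (adjusted p = 0.0257 and 0.0285), and 0.62 and 0.61 at 15 min. *NSA2* (YER126C) and *ARX1* (YDR101C), a nuclear export factor, changed by -0.998 and -1.86 in WT no-memory cells, and *NSA2* had -0.24 in WT memory cells (adjusted p = 0.336).

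Members with and without a full PAC had overlapping ranges of change. In WT no-memory cells at 15 min against 0 min, the 32 genes with a full PAC had a median log2 change of -1.81 and the 16 without it -1.42, and both sets spanned a wide range, -2.91 to -0.92 and -2.02 to -0.94. For the memory difference at 15 min in WT the medians were 1.39 with and 1.38 without PAC. The 39 genes with RRPE had a median heat change of -1.70 (range -2.91 to -0.92), and the 9 without it -1.51 (range -2.40 to -0.92). Their median memory differences were 1.42 with and 1.13 without RRPE. These are descriptions with no test.

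The other genes of the ribosome biogenesis programme were counted in the same fit. At 15 min, 31 of 31 other 60S assembly and export factors, 51 of 53 genes for the small-subunit processome and 40S assembly, and 8 of 8 genes for RNA polymerase I subunits and Rrn3 were lower in WT no-memory cells, with medians of -1.43, -1.60 and -1.85 on the log2 scale, beside -1.65 for the 48 genes. In WT memory cells the counts were 16 of 31, 34 of 53 and 6 of 8, where 32.6% of all genes were called lower. The falls of ribosomal protein genes had larger medians: 75 of 76 large-subunit and 56 of 56 small-subunit genes were lower in WT no-memory cells, with medians of -3.91 and -4.06. Of 8 regulators of these genes, 3 were lower and 2 higher, where 36% and 35.9% of all genes were.

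The 2 terms of the memory difference were also taken for these lists. The response difference at 15 min was called for 72 of 76 large-subunit and 56 of 56 small-subunit ribosomal protein genes in WT (medians 2.06 and 2.04), and for 73 and 56 in *mip6Δ* (medians 2.21 and 2.15), against 6 and 3 of the 48 assembly factor genes in the same fit. At 0 min the ribosomal protein genes had medians of 0.18 and 0.15 in *mip6Δ* and -0.01 and -0.03 in WT, beside 0.41 and 0.51 for the assembly factors. The processome and 40S factors had 0 min medians of 0.35 and 0.44 in *mip6Δ* and WT, and 10 and 12 of 53 response differences at 15 min were called. Of all genes, 7.45% in *mip6Δ* and 7.34% in WT were called higher for this difference. Differences between lists were not tested.

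The last comparison asks whether the genes depended on Mip6, an RNA-binding protein that partners the export receptor Mex67. No member was called by edgeR between *mip6Δ* and WT in any of the 6 combinations of condition and time, in which 0.0331% (each memory time) or 0.0166% (each no-memory time) of all genes were. At an unadjusted p under 0.05, 2 members differed in no-memory cells at 0 min and 0 in the other 5 combinations, and DESeq2 and limma called 0 in each. Averaged over the 6 combinations, 0 of 48 were called (1.16% of all genes) with 4 at an unadjusted p under 0.05, while limma called 1 and DESeq2 0. The averaged log2 differences were between -0.11 and 0.19, and the 95% intervals of all members lay within -0.36 and 0.37. The smallest p-values were those of *RRP14* (0.18, unadjusted p = 0.0164 in edgeR, adjusted p = 0.222), *RRP15*, *NOP16* and *LOC1*, all 4 slightly higher in *mip6Δ*.

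The direction of the strain difference over the 48 genes, none of them called, was not the same at each time. The medians at 0, 15 and 20 min, *mip6Δ* minus WT, were 0.18, -0.07 and -0.10 in memory cells and 0.26, 0.09 and -0.27 in no-memory cells, with 48, 8 and 9 positive differences in memory cells and 48, 39 and 2 in no-memory cells. In no-memory cells at 0 min all 48 log2 differences were positive in *mip6Δ*, between 0.05 and 0.48, and the 3 *mip6Δ* samples lay above the 3 WT samples for 26 genes, against 5.8% of all genes. The 95% intervals of single genes at that time ran from -0.42 to 1.15 and included 0 for all members but *RRP14* and *RLP24*, which did not pass the adjusted threshold. The 48 genes share their libraries, of which replicate 3 of WT no-memory at 0 min had the lowest share of counts for them.

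The heat response and the effect of memory on it were also set against each other between the strains. In all 4 heat responses (15 and 20 min, memory and no-memory) and in the memory effect at 15 and 20 min, 0% of all genes and 0 of 48 members were called by edgeR, and DESeq2 and limma called 0 members. At an unadjusted p under 0.05, 2 members differed, both in the no-memory response at 20 min. The medians of the differences, *mip6Δ* minus WT, were -0.25 and -0.28 for the memory response at 15 and 20 min, -0.17 and -0.51 for the no-memory response, and -0.08 and 0.28 for the memory effect.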

How the data were processed

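Poly(A) RNA of 36 samples was analysed, in 12 groups of 3. The deposited counts are whole read counts per gene that the authors made by trimming reads with Trimmomatic, aligning them to sacCer3 with HISAT2 and quantifying with StringTie (FastQC for quality; versions not given in the sources used here). The authors also deposited a normalized signal for 6172 genes, made with a NOISeq filter at 1 CPM, TMM and ARSyN, which served here as a gene filter and, as log2 values, in limma alternatives. Because ARSyN removes hidden batch effects, the spread between replicates in that signal can be narrower than in the counts.

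The 6403 genes of the count table were filtered with filterByExpr, which left 6038, scaled by TMM and fitted together by quasi-likelihood, with 12 groups and residual degrees of freedom of 24 (edgeR 4.0.16, R 4.3.3). Every p-value was adjusted by Benjamini-Hochberg over these genes, with a threshold of 0.05. The main test on counts was kept for all comparisons. Depth, between 28270651 and 42233578 counts per sample, gave each member at least 143 counts, and the spread between replicates rather than counting error limited the precision. No pair of replicates agreed within counting noise (lowest chi-square per degree of freedom 22.7).

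The alternatives were DESeq2 1.42.0, its size factors in edgeR, scaling by total counts, no filter, the genes of the normalized table, limma 3.58.1 on the normalized signal with a pseudocount of 1 or 10, samples of 1 strain alone, a replicate block, and each replicate left out. Leaving out WT memory 0 min replicate 1, WT no-memory 0 min replicate 3 or *mip6Δ* no-memory 15 min replicate 1 was chosen after seeing the data. The steps were tested on simulated counts.

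The list of members, whose rule uses gene names alone, the other lists and the tests were chosen with earlier results of these data known. Values in every sample are given for the 12 genes the list was written around, the largest fall of each of 8 roles, the 3 smallest falls, and the 3 largest and 3 smallest memory differences at 15 min. Ribosomal protein genes were taken by symbol. Gene positions, coding lengths and sequences are from RefSeq, build R64, in which *MDN1* is named *REA1*. Exact motif matches were counted in the 300 bases before the start codon of 6001 protein-coding genes. Figures were drawn with matplotlib 3.10.9 (Python 3.11.15, pandas 2.3.3).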

Additional observations from a re-analysis of the deposited data

Results flagged for a closer look

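Under the same heat shock, 3 of the 48 genes responded differently in memory and no-memory cells of *mip6Δ* at 15 min by edgeR's test of the difference between the responses. They were *DBP3* with a log2 difference of 1.55, *NOP12* with 1.16 and *RRS1* with 1.07. Of all genes 7.45% were called with a more positive response in memory cells, a larger share than that of the members. The members' count was 16 with a replicate block, 0 without replicate 2 of every group and 1 without replicate 1 of *mip6Δ* no-memory at 15 min.

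At 20 min the same test in *mip6Δ* found 7 genes. They were *DBP3* (1.62), *DRS1* (1.37), *RIX7* (1.24), *NOC3* (1.12), *NOP12* (1.03), *RRS1* (0.87) and *CIC1* (0.78). Of all genes 9.29% were called with a more positive response in memory cells. The members' count was 21 with a replicate block, between 0 and 27 with replicates left out and 0 without replicate 2 of every group.

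In WT at 15 min it found 6 genes, which were *DBP3* (1.501), *RIX7* (1.25), *NOC3* (1.10), *RRS1* (1.09), *NOP12* (1.08) and *EBP2* (1.04). Of all genes 7.34% were called with a more positive response in memory cells. The members' count was 27 with a replicate block and between 0 and 30 with replicates left out. In all of the genes named here the fall was smaller in memory cells. The shares of all genes given here are those of the fit with all samples and no block, and they leave out genes called in the other direction. Whether the differences in *mip6Δ* and in WT are unlike each other was tested, and 0 of 48 genes were called for it at 15 min and 0 at 20 min, also with 0 at an unadjusted p under 0.05 and 0 by DESeq2 and by limma.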

How the results depend on the processing

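Of 367 counts of called members recomputed under the alternatives, 301 stayed within 1.5 times the value in the report, and 66 did not. The counts under the alternatives stand without the share of all genes called under the same setting. The counts for the heat responses and for memory against no-memory at 15 and 20 min kept that range under the settings other than leaving out replicates. With a replicate left out, from every group or from 1 group, the members lower at 15 min numbered 34 to 47 in *mip6Δ* memory, 16 to 47 in WT memory and 45 to 48 in WT no-memory cells, and 48 in *mip6Δ* no-memory cells. At 20 min they numbered 19 to 41, 45 to 48, 5 to 37 and 27 to 46 in *mip6Δ* memory, *mip6Δ* no-memory, WT memory and WT no-memory cells. Higher with memory were 37 to 47 (*mip6Δ*) and 40 to 46 (WT) at 15 min, and 42 to 48 and 19 to 47 at 20 min. At 0 min the counts were 0 to 22 in *mip6Δ* and 0 to 35 in WT. Response differences called were 0 to 4 (*mip6Δ*) and 0 to 30 (WT) at 15 min, and 0 to 27 and 0 to 2 at 20 min, and the step between 15 and 20 min in WT no-memory cells gave 0 to 12.

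Response differences called at 15 min in *mip6Δ* and WT were 8 and 15 with DESeq2, 26 and 32 with limma at either pseudocount, and 1 and 37 with samples of 1 strain alone. At 20 min in *mip6Δ* they were 13, 29 and 1 under these settings, and in WT limma gave 1 and samples of 1 strain 13. At 0 min, memory cells had 21 (*mip6Δ*) and 31 (WT) members called higher with total counts alone, and 11 and 18 with limma, while WT samples alone gave 26. The step between 15 and 20 min in WT no-memory cells gave 3 with total counts alone, 2 with DESeq2, 11 and 10 with limma at a pseudocount of 1 and 10, and 21 with WT samples alone. Averaged over the combinations, limma called 1 member between *mip6Δ* and WT. Scaling by total counts also made 80% of all genes called at 0 min higher in *mip6Δ* memory cells, against 34.1% with TMM, and 87.2% in WT, against 35.4%.

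The replicate numbers were checked for pairing, since the labels say that a culture was split between flasks but not that a number marks 1 culture. Between memory and no-memory samples of the same strain and time, all 3 correlations were over 0.1 except in *mip6Δ* at 15 min, where replicate 2 had -0.066. Same-numbered samples deviated together with a correlation over 0.1 in 147 of 198 cases (lowest -0.25, median 0.27), and 34 of 36 samples correlated best with their own number within the strain, as a hint from the data and not from the design. With a replicate block, response differences called were 16 (*mip6Δ*) and 27 (WT) at 15 min and 21 in *mip6Δ* at 20 min, 9 and 13 members were higher with memory at 0 min, and 6 were higher at 20 than at 15 min in WT no-memory cells. The other counts stayed within 1.5 times under the block.

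A sign turned in 9 cases, all of values that were not called. The members' median between 20 and 15 min in *mip6Δ* no-memory cells was -0.071 without *mip6Δ* no-memory 15 min replicate 1, and up to 0.42 without replicate 3. *NOG2* in WT memory cells at 15 min against 0 min was -0.26 without replicate 1 of every group and -0.16 without WT memory 0 min replicate 1, and up to 0.28 without replicate 3. *TIF6* at 0 min was 0.12 in *mip6Δ* and 0.12 in WT with total counts alone, and in WT 0.054 without replicate 1 of every group and 0.073 without WT memory 0 min replicate 1. *MDN1* at 15 min, memory against no-memory in *mip6Δ*, was -0.16 without replicate 3 of every group and -0.077 without *mip6Δ* no-memory 15 min replicate 1, and up to 0.15 without replicate 2. The causes were not tested.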
